A study of Mus musculus with 24 samples.

Results

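The sarcomere and Z-disc genes described here are 33 mouse genes chosen by name for what their proteins do, out of 46078 genes in the deposited count tables. These members and the gene lists below were chosen with earlier results of these data known. Setting their called shares beside those of all genes is therefore not an independent test. The members comprise 8 genes of the thick filament, 9 of the thin filament, 3 of titin and the M-band, 10 of the Z-disc and 3 of the desmin filament and costamere. The sarcomere is the contractile unit of heart muscle: myosin thick filaments pull on actin thin filaments, troponin and tropomyosin switch that contact on with calcium, and titin spans from the Z-disc to the M-band as a spring. The Z-disc anchors the thin filaments of neighbouring sarcomeres through alpha-actinin and carries proteins that sense load, and desmin filaments and costameres tie Z-discs to each other and to the cell membrane. Heart muscle is known to exchange some of these proteins for isoforms of the fetal or skeletal muscle programme under stress, which is why isoform pairs are described side by side below.

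The study sequenced total RNA from hearts of wild-type C57BL/6 mice in 8 groups of 3 libraries. These were sham-operated hearts, hearts taken after 45 min of ischemia, and hearts taken after 45 min of ischemia followed by 0.5 h, 1 h, 1.5 h, 3 h, 6 h or 12 h of reperfusion. No genetic change or drug was used in any group, and all groups shared the strain, the tissue label and the RNA preparation with Trizol and an Illumina TruSeq kit. The sources used here do not give age, sex or the region of the heart sampled. They do not say either whether a group's 3 libraries stem from different mice, so p-values measure only the spread between these libraries, which may be technical. The study's title concerns ATF3 and ferroptosis after ischemia and reperfusion; its time course places each time beside sham. Below, a bare time such as 3 h means reperfusion after 45 min of ischemia.

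Each library held 13407465 to 17181458 uniquely counted reads, of which 39.2 to 54.5% were duplicates. Mitochondrial genes took 19.0 to 33.2% of them and the 33 members 7.21 to 9.41%. Levels are CPM (read counts relative to library size) after scaling by the trimmed mean of M-values (TMM), which sets libraries on the scale of their typical gene. Of the 33 members, 31 passed the filter on low counts, and 15128 genes were tested in all. The fitted changes are log2 differences of edgeR's quasi-likelihood model with their standard errors, with calls made where the adjusted p was under 0.05. All 7 comparisons with sham share the same 3 sham libraries. The library of 1 h replicate 1 stood apart in how its counts depended on gene length: over 10151 genes its log2 change against the sham mean fell by 0.32 per doubling of length, against -0.04 to -0.16 in the other reperfused libraries.

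The tissue label was borne out by cardiomyocyte genes that are not sarcomeric. Ryr2, the calcium release channel, lay between 1187 and 2019 CPM, and Pln, the phospholamban gene, between 2283 and 7178 CPM. Of genes that mark atrial muscle, Bmp10 had no read in any library, Sln, the atrial sarcolipin, had 9 reads over all 24 libraries, and Myl7, the atrial regulatory light chain and a member, had 92. The 6 genes of the atrial list that are not members, which include Nppa and Clu, known to be expressed by stressed ventricle too, summed to 848 to 1121 CPM at 12 h, against 325 to 406 CPM in sham. Of fast skeletal muscle genes, Myh1 and Myh4 had 1 read each over all libraries, Actn3 49, Mylpf 176 and Tnni2 631, and the 12 genes of the skeletal list summed to 41.5 to 54.7 CPM at 6 h and 41.0 to 56.6 CPM at 12 h, against 49.4 to 80.9 CPM in sham.

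Within sham hearts the members covered a wide range of levels per length. Actc1, cardiac alpha-actin, averaged 7268 CPM per kb of deposited gene length and Myh6, the fast alpha-myosin heavy chain of the adult mouse heart, 4037 CPM per kb. The ventricular light chains Myl3 and Myl2 followed with 1990.5 and 1635 CPM per kb, then Tnni3, cardiac troponin I, with 1453 CPM per kb. At the low end of the tested members stood Synpo2l with 29.0, Mypn with 28.7, Myh7b with 13.5 and Pdlim3 with 6.32 CPM per kb, and Myl4, the atrial essential light chain, was lowest of those tested with 0.257 CPM per kb; Synpo2l and Mypn did not differ beyond their spread. The deposited length counts every annotated exon, so that levels per length are too low for genes with many alternative exons. How far this bears on single members was not tested. The lengths given are 116825 bases for Ttn and 4637 bases for Myl4.

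The members differed from sham in direction and timing. Synpo2l, Nrap, Pdlim3, Mypn and Des, genes of the Z-disc and the desmin filament, were higher at 6 h. Myh7b, Nebl, Cmya5, Actc1 and Ttn were lower at 6 h and 12 h. With duplicates removed the Actc1 difference at 6 h was -0.10 (adjusted p = 0.500 in edgeR). With an offset for gene length, chosen after seeing the data, that of Ttn was -0.01 (0.967) at 6 h and -0.22 (0.312) at 12 h. Higher at 3 h were 8 thick and thin filament genes, Myh7b among them. Each of these 3 h calls was lost under 2 to 10 of 17 alternatives. Ischemia alone gave 0 called members by edgeR, DESeq2 and limma-voom, with 1 member, Myl2, under an unadjusted p of 0.05 in edgeR (0.0925% of all tested genes were called). At 0.5 h 2 members rose and 1 fell, where 11.9% of all tested genes were called, 7.43% higher and 4.48% lower. At 1 h 3 members rose, with 10.9% of all genes called, 7.46% higher and 3.41% lower. At 1.5 h 1 member rose, with 7.54% of all genes called, 4.55% higher and 2.99% lower. These early counts rested on single libraries. At 0.5 h the count was 0 without any 1 of the 6 libraries concerned, with 3.90 to 7.28% of all genes called. At 1 h it was 0 without sham replicate 2 (5.60% of all genes called) or 1 h replicate 1 (3.48%). It was 1 without sham replicate 1 (4.98%) or 3 (6.10%). At 1.5 h it was 0 without sham replicate 2 (4.24%) or 3 (4.34%) or 1.5 h replicate 1 (4.30%) or 3 (3.26%).

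At 3 h 14 members rose and 3 fell, where 35.3% of all tested genes were called, 18.4% higher and 16.9% lower. At 6 h 5 members rose and 6 fell, with 47.4% of all genes called, 24.6% higher and 22.9% lower. At 12 h 5 members rose and 7 fell, with 31.8% of all genes called, 16.9% higher and 14.9% lower. A test for any difference among the 8 groups called 22 of the 31 members (64.3% of all tested genes). The members called came to 54.8% of the 31 tested at 3 h, 35.5% at 6 h and 38.7% at 12 h. The median log2 change of the 31 members was 0.31 at 3 h, 0.13 at 6 h and -0.13 at 12 h, against -0.01 at 3 h, -0.01 at 6 h and 0.01 at 12 h over all genes. The count at 3 h was unstable. Without sham replicates 1, 2 and 3 in turn it came to 5 (28.0% of all genes called), 10 (27.5%) and 8 (28.1%). It was 9 without 3 h replicate 2 (32.1%) or 3 (25.3%). With libraries scaled by their totals without mitochondrial genes, 4 members rose and 3 fell at 3 h and 3 rose and 1 fell at 1 h; the 7 members called at 3 h then compare with 39.1% of all genes tested. The rises of Actn2, Lmod2, Myl2, Myl3, Myl4, Myom2, Tcap, Tnni3, Tnnt2 and Tpm1 were those lost. Scaling by library totals gave 8 higher at 0.5 h (12.3% of all genes called). It gave 11 higher and 6 lower at 6 h (44.9%) and 8 higher and 5 lower at 12 h (35.1%). Whether the members were called more often than other genes thus turned on the scaling at both 3 h and 6 h. The members were also chosen with earlier results of these data known.

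**Figure D1:**
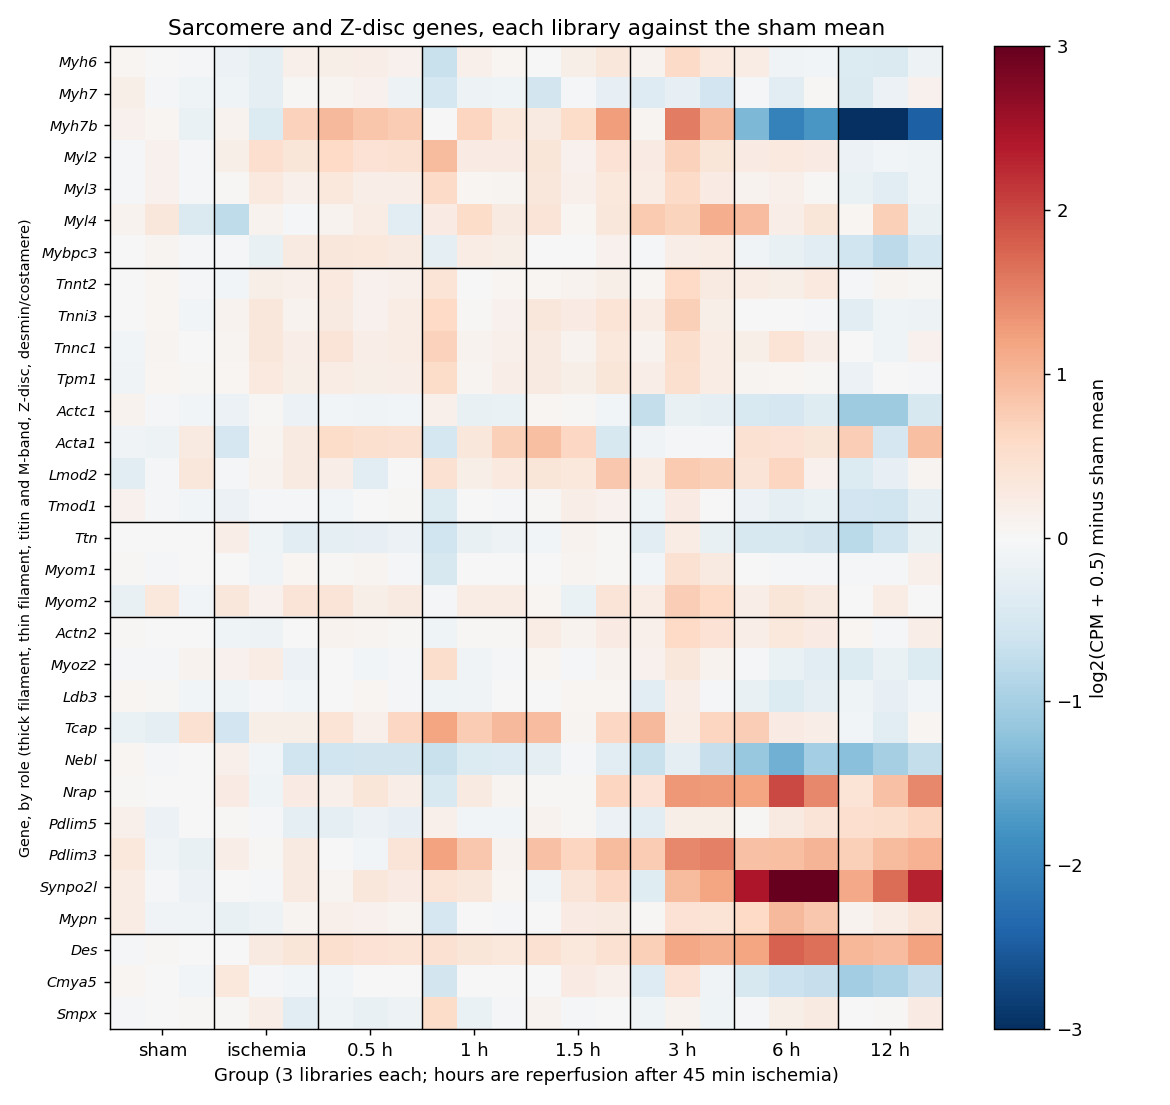
Change of each of the 31 tested members in each of the 24 libraries, as log2(CPM + 0.5) minus the mean of that value over the sham libraries. Genes are grouped by role from top to bottom and groups of 3 libraries run from left to right. Synpo2l is darkest red at 6 h, Myh7b turns to blue at 6 h and 12 h, and most filament genes stay near white.

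By role, 4 of 7 tested thick filament genes rose and 1 fell at 3 h. Of 8 thin filament genes 4 rose and 1 fell. With totals without mitochondrial genes, only Myh7b kept its rise among these, and Actn2, Tcap and Myom2 lost theirs. The thick filament share called was 71.4% at 3 h, 14.3% at 6 h and 28.6% at 12 h. The thin filament share was 62.5%, 12.5% and 25% at those times. The Z-disc share was 50%, 60% and 50%, and that of all tested genes 35.3%, 47.4% and 31.8%. Of 10 Z-disc genes, 4 rose and 1 fell at 3 h, 4 rose and 2 fell at 6 h, and 4 rose and 1 fell at 12 h. In the thick and thin filaments the calls at 6 h and 12 h were falls, of 1 gene each at 6 h and of 2 genes each at 12 h. Of 3 genes of titin and the M-band, 1 rose at 3 h and 1 fell at 6 h and at 12 h, and of 3 genes of the desmin filament and costamere, 1 rose at 3 h, and 1 rose and 1 fell at 6 h and again at 12 h.

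**Figure D2:**
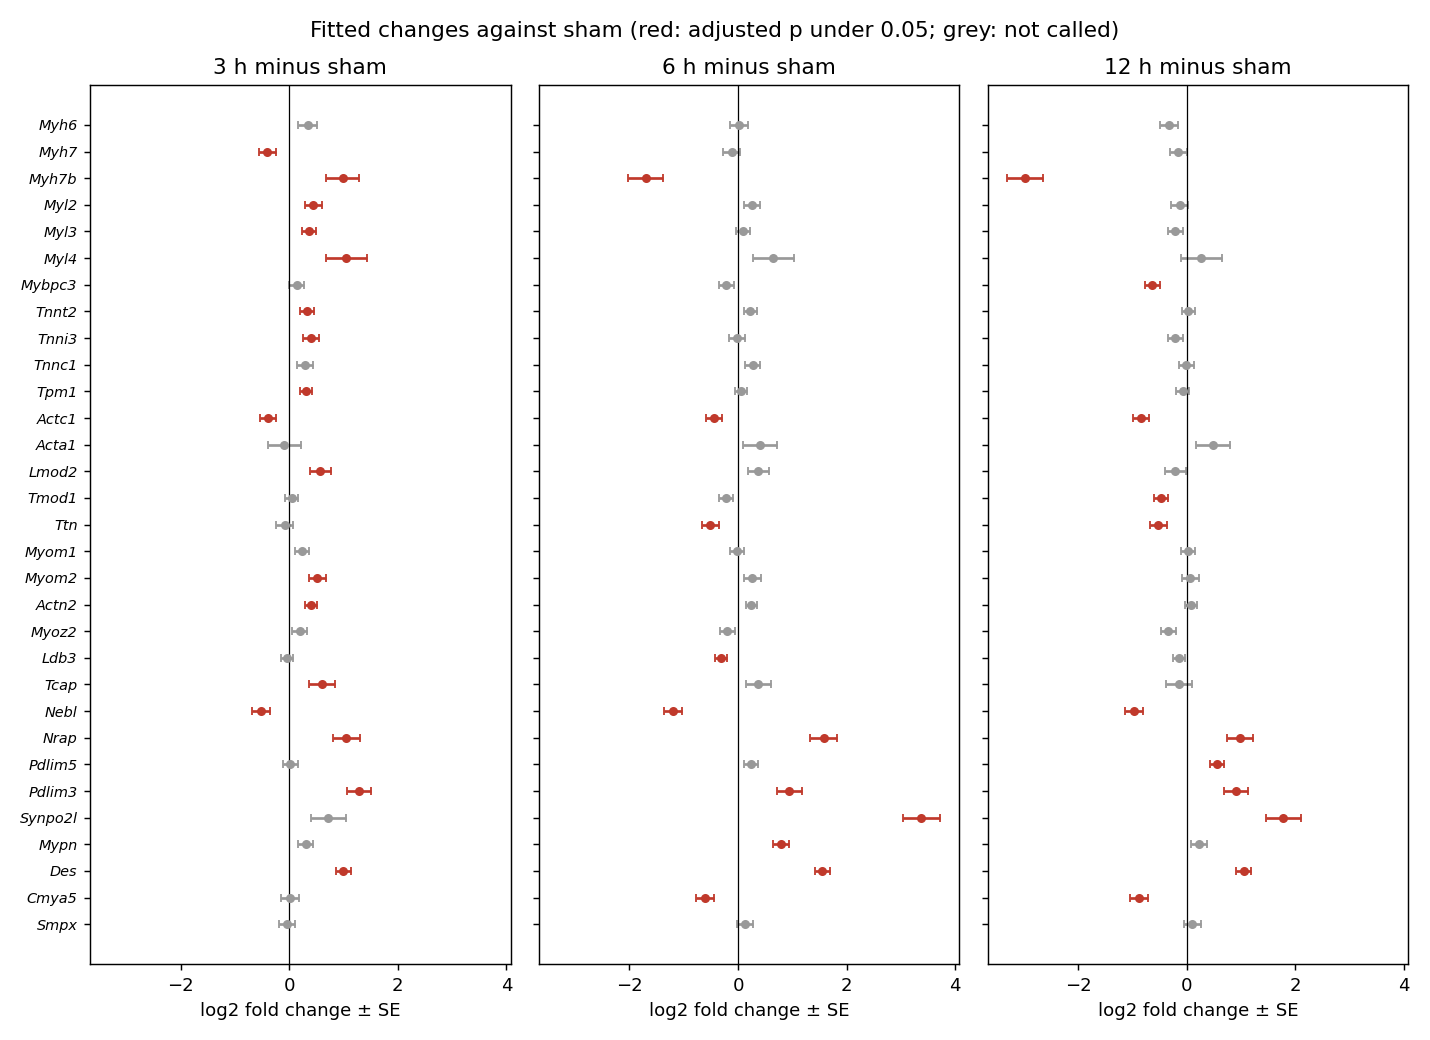
Fitted log2 changes of the 31 tested members at 3 h, 6 h and 12 h against sham, with bars of 1 SE; red points were called at an adjusted p under 0.05 and grey points were not. The 6 h panel holds the widest range, -1.70 for Myh7b to 3.38 for Synpo2l, and the 12 h panel holds Myh7b at -2.98.

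Synpo2l showed the largest rise of all members. It encodes synaptopodin 2-like, a Z-disc protein that binds alpha-actinin (ENSMUSG00000039376, chr14:20658946-20668354, minus strand; GRCm38, here and below). Its level was 156, 129 and 118 CPM in sham hearts, 132, 129 and 161 after ischemia, 142, 170.0 and 158 at 0.5 h, 178, 169 and 138 at 1 h and 125, 175 and 206 at 1.5 h. At 3 h the libraries held 104, 257 and 302 CPM, at 6 h 716, 1833 and 1653 CPM and at 12 h 296, 426 and 665 CPM. All 6 libraries at 6 h and 12 h lay above every sham library, while at 3 h replicate 1 lay below sham and the other two above. Synpo2l was 10.4-fold higher at 6 h than in sham, a log2 difference of 3.38 ± 0.35 (SE; adjusted p = 4.23e-08), and 3.44-fold higher at 12 h, a log2 difference of 1.78 ± 0.33 (SE; adjusted p = 2.02e-04). The difference at 3 h was 0.72 ± 0.32 (SE; adjusted p = 0.0835) and was not called. The 6 h libraries spread widely, from 716 to 1833 CPM, but replicate 1, the lowest, was still above every library of the other 7 groups.

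Des encodes desmin, the intermediate filament protein of muscle (ENSMUSG00000026208, chr1:75360329-75368579, plus strand). Its level was 1304, 1372 and 1336 CPM in sham hearts, 1325, 1619 and 1725 after ischemia, 1866, 1808 and 1784 at 0.5 h, 1830.4, 1713 and 1676 at 1 h and 1844, 1659.8 and 1847 at 1.5 h. It reached 2196, 2970.0 and 2813 CPM at 3 h, 3057, 4557 and 4193 at 6 h and 2649, 2559.8 and 3111 at 12 h. From 0.5 h onward no reperfused library overlapped the sham range. The log2 difference from sham was 0.99 ± 0.14 (SE; adjusted p = 8.36e-06) at 3 h, 1.56 ± 0.14 (SE; adjusted p = 6.04e-09) at 6 h, or 2.94-fold, and 1.05 ± 0.14 (SE; adjusted p = 3.45e-06) at 12 h; that at 0.5 h, 0.44 ± 0.14 (SE; adjusted p = 0.0365), was lost without any 1 of its 6 libraries, with adjusted p up to 0.116. Smooth muscle also makes desmin. The summed level of 7 other smooth muscle markers was 594 to 856 CPM at 6 h, against 1172 to 1275 CPM in sham; of the 8 genes of that list 3 fell at 6 h, Des was the 1 that rose, and the part of these cells in the Des result was not tested.

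Nrap encodes the nebulin-related anchoring protein, an actin-binding LIM protein of myofibril assembly sites and intercalated discs (ENSMUSG00000049134, chr19:56320035-56390037, minus strand). It held 498, 486 and 484 CPM in sham hearts, 576, 447 and 583 after ischemia, 543, 631 and 561 at 0.5 h, 358, 591 and 521 at 1 h and 504, 504 and 760.4 at 1.5 h. At 3 h it held 666, 1198 and 1182 CPM, at 6 h 1117, 1941 and 1333 CPM and at 12 h 655, 905 and 1339 CPM. Every library from 3 h on was above the 3 sham libraries, which lay close together. The log2 differences were 1.05 ± 0.25 (SE; adjusted p = 0.00205) at 3 h, 1.58 ± 0.25 (SE; adjusted p = 1.81e-05) at 6 h and 0.98 ± 0.25 (SE; adjusted p = 0.00373) at 12 h.

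Pdlim3 encodes the actinin-associated LIM protein, and its level was far lower than that of the genes above (ENSMUSG00000031636, chr8:45885461-45919548, plus strand). It held 12.4, 9.17 and 8.31 CPM in sham hearts, 11.4, 10.2 and 11.9 after ischemia, 9.73, 9.27 and 13.0 at 0.5 h, 23.3, 17.6 and 10.7 at 1 h and 18.6, 15.8 and 19.3 at 1.5 h. The values were 17.0, 27.6 and 28.8 CPM at 3 h, 18.6, 18.9 and 20.5 at 6 h and 16.4, 19.3 and 20.9 at 12 h. Its highest libraries were thus at 3 h, and all libraries from 1.5 h on exceeded those of sham. The log2 difference was 1.29 ± 0.22 (SE; adjusted p = 1.21e-04) at 3 h, 0.95 ± 0.22 (SE; adjusted p = 0.00129) at 6 h and 0.91 ± 0.22 (SE; adjusted p = 0.00293) at 12 h. Calls at 1 h (0.78) and 1.5 h (0.84) were lost when single libraries were left out, with adjusted p up to 0.222 at 1 h and 0.112 at 1.5 h.

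Mypn encodes myopalladin, which binds alpha-actinin and nebulette at the Z-disc (ENSMUSG00000020067, chr10:63115795-63203952, minus strand). Its levels were 176, 138 and 138 CPM in sham hearts, 128, 136 and 158 after ischemia, 166, 165 and 157 at 0.5 h, 106, 151 and 147 at 1 h, 151, 177 and 181 at 1.5 h, 154, 203 and 199 at 3 h, 226, 294 and 261 at 6 h and 161, 174 and 197 at 12 h. Only the 6 h libraries were all above sham with a call, at 0.79 ± 0.15 (SE; adjusted p = 1.12e-04); the 12 h libraries overlapped those of sham, at 0.23 ± 0.15 (SE; adjusted p = 0.235).

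**Figure D3:**
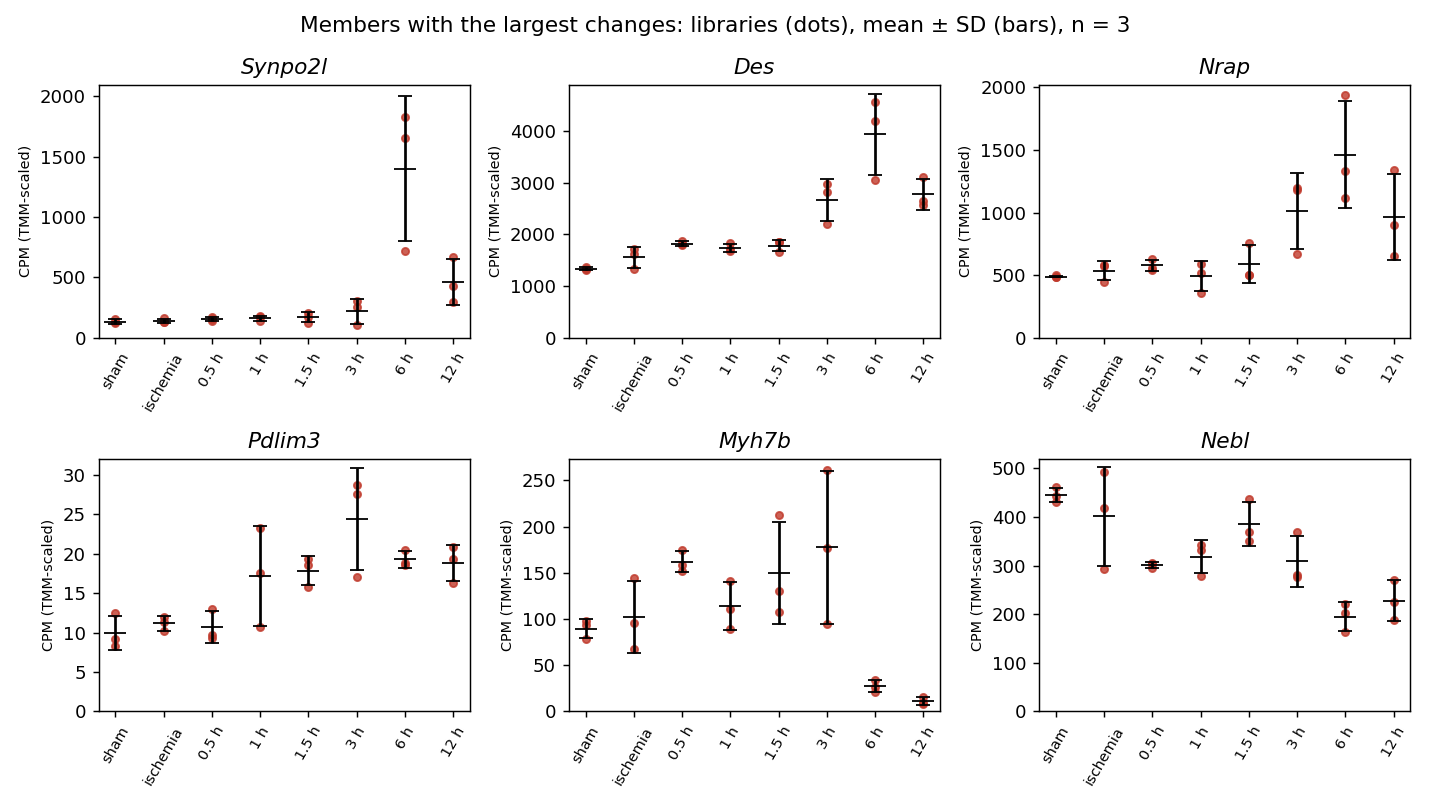
TMM-scaled CPM of Synpo2l, Des, Nrap, Pdlim3, Myh7b and Nebl in each library (dots) of the 8 groups, with the mean and SD of 3 libraries. Synpo2l, Des and Nrap are highest at 6 h, Pdlim3 at 3 h, and Myh7b and Nebl are lowest at 12 h and 6 h.

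Promoter windows of Synpo2l, Pdlim3 and Actc1, which were called, and of Acta1, the isoform partner of Actc1, which was not, are shown because the sequence just before the start site is where heart muscle factors commonly bind. RefSeq windows on GRCm38.p6, from 250 bases before to 50 bases after a start site, matched 31 of the 33 members with 41 windows; Tcap and Myom2 had none. They were searched on both strands for the AP-1 motif TGANTCA, the cyclic AMP response element TGACGTCA, the M-CAT motif GGAATG, which TEAD factors bind, the TATA motif TATAAA, the CArG box of serum response factor and the MEF2 site. Each motif was searched on its own, so matches of different motifs may overlap. Capitals mark the matches, and U is not used.
Synpo2l, chr14:20668305-20668604, minus strand, MEF2 site in capitals: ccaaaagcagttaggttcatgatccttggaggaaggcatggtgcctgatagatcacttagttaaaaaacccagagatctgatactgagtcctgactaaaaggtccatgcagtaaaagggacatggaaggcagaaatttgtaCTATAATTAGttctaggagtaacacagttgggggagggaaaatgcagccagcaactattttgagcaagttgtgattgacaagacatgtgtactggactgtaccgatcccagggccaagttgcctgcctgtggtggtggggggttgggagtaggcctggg
Pdlim3, chr8:45885237-45885536, plus strand, an M-CAT motif, the response element and a reversed M-CAT motif in capitals: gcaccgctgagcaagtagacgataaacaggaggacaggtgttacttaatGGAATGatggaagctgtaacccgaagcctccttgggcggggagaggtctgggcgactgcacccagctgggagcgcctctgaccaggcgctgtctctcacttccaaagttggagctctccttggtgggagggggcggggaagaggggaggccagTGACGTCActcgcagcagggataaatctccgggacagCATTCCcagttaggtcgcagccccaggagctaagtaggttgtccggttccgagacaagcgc
Actc1, chr2:114052826-114053125, minus strand, the CArG box and the TATA motif in capitals: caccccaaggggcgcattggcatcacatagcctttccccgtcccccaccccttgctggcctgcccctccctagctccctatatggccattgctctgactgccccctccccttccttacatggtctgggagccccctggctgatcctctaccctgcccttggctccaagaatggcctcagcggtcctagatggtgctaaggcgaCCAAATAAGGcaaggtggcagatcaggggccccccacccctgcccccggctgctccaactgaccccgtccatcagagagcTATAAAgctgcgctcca
Acta1, chr8:123894726-123895025, minus strand, the CArG box, a reversed M-CAT motif and the TATA motif in capitals: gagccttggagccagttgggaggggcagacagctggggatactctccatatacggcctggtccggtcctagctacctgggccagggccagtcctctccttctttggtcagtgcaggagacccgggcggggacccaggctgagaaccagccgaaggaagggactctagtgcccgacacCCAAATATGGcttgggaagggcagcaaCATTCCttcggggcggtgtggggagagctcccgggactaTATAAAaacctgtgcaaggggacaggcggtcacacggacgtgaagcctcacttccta
The MEF2 match of Synpo2l has its first base at -109 relative to the start site, and the response element of Pdlim3 at -48. The window of a second annotated start site of Synpo2l, at chr14:20664525-20664824, minus strand, also held a MEF2 match, at -144. Both alpha-actin genes held a CArG box, at -47 for Actc1 and -73 for Acta1. Their TATA motifs began at 33, after the start site, for Actc1 and at -7 for Acta1. All positions are relative to the annotated start sites, and whether these were the ones used in the hearts was not tested. Des, Nrap, Myh7b and Cmya5 held no match to any of the 6 motifs in these windows.

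Over the 41 windows, a CArG box was found in 19.5%, against 1.63% of all 32851 windows, and a MEF2 site in 12.2%, against 3.19%. The M-CAT motif was found in 31.7% of members' windows and 14.7% of all windows. AP-1 matches came to 9.76% and 7.81%, response elements to 2.44% and 1.79%, and TATA motifs to 14.6% and 13.6%. The members with a CArG box were Nebl, Actc1, Acta1, Myl3, Myl7, Ldb3 and Myom1, which include genes that fell, genes that rose and genes not called.

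Nebl, nebulette, was the Z-disc gene that fell most (ENSMUSG00000053702, chr2:17343909-17731464, minus strand). It held 461, 431 and 443 CPM in sham hearts, 493, 419 and 292 after ischemia, 295, 305 and 302 at 0.5 h, 279, 333 and 342 at 1 h and 368, 437 and 351 at 1.5 h. At 3 h the values were 280.1, 369 and 277 CPM, at 6 h 202, 162 and 220.4 CPM and at 12 h 187, 224 and 271 CPM. The 6 libraries at 6 h and 12 h were the lowest of the series, and ischemia replicate 3 already lay with the 0.5 h libraries. Nebl was 2.28-fold lower at 6 h than in sham, a log2 difference of -1.19 ± 0.17 (SE; adjusted p = 3.65e-06), and the difference was -0.97 ± 0.17 (SE; adjusted p = 1.02e-04) at 12 h. At 3 h it was -0.53 ± 0.17 (SE; adjusted p = 0.0153), a call lost without sham replicate 1 (0.0541) or 3 h replicates 1 (0.0598) or 3 (0.0779). The 0.5 h call (-0.57) was lost without any 1 of its 6 libraries, with adjusted p up to 0.101.

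The other 5 Z-disc genes differed from sham by at most 0.95 on the log2 scale, the value of Tcap at 1 h. Pdlim5, the enigma homolog, rose at 12 h to 916, 936 and 1014 CPM, against 723, 576 and 649 CPM in sham hearts, a log2 difference of 0.56 ± 0.13 (SE; adjusted p = 0.00236). Ldb3, the ZASP protein that binds alpha-actinin, averaged 794 ± 52.9 CPM at 6 h and 984 ± 48.7 CPM in sham (SD, n = 3 each), a log2 difference of -0.31 whose adjusted p of 0.0249 was lost without sham replicates 1 (0.105) or 2 (0.0694) or 6 h replicates 2 (0.112) or 3 (0.0648). Tcap, telethonin, which caps titin, was higher at 1 h with 1453, 1083 and 1257 CPM against 556, 529.6 and 878 CPM in sham, a log2 difference of 0.95 ± 0.24 (SE; adjusted p = 0.0120). Its sham libraries themselves differed widely, with replicate 3 well above the other two. The 1 h call was lost without sham replicates 1 (0.0705) or 2 (0.0714) or 1 h replicate 1 (0.0754) and with an offset for gene length (0.60, adjusted p = 0.101), and a call at 3 h (0.60 ± 0.24 (SE; adjusted p = 0.0497)) without sham replicates 1 (0.165) or 2 (0.192) or 3 h replicates 1 (0.224) or 3 (0.0986). Actn2, alpha-actinin 2, averaged 2426 ± 370.3 CPM at 3 h and 1835 ± 44.4 CPM in sham, a log2 difference of 0.40 ± 0.11 (SE; adjusted p = 0.00602) that was 0.21 and not called with totals without mitochondrial genes (0.0650). Myoz2, a calsarcin that binds calcineurin, was called against sham at no time.

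Myh7b had the largest fall of all members. It encodes a slow-type myosin heavy chain of low level whose intron holds the microRNA gene Mir499 (ENSMUSG00000074652, chr2:155611212-155634307, plus strand). Its levels were 97.3, 93.5 and 78.1 CPM in sham hearts, 96.1, 67.0 and 144 after ischemia, 175, 159 and 152 at 0.5 h, 88.9, 141 and 111 at 1 h and 108, 130.2 and 212 at 1.5 h. They were 95.0, 261 and 177 CPM at 3 h, 34.6, 21.5 and 26.5 CPM at 6 h and 9.50, 8.63 and 16.0 CPM at 12 h. Myh7b was thus above every sham library at 0.5 h and 1.5 h and below every sham library at 6 h and 12 h. The log2 difference was -1.70 ± 0.32 (SE; adjusted p = 1.09e-04) at 6 h and -2.98 ± 0.34 (SE; adjusted p = 4.19e-07) at 12 h, 7.90-fold lower at 12 h than in sham. At 3 h it was 0.98 ± 0.30 (SE; adjusted p = 0.0142), a call lost without sham replicate 3 (0.0588) or 3 h replicate 2 (0.146), and 3 h replicate 1 lay inside the sham range. Myh7b overlaps Trpc4ap on the opposite strand, and the sources used here do not say whether the counting used strand. Over all libraries Trpc4ap had 46714 counted reads and Myh7b 38748, so part of either count may belong to its neighbour.

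The major myosin heavy chains, Myh6 and Myh7, were near sham at most times. Myh6 held 26671, 25202 and 24988 CPM in sham hearts, 22527, 21132 and 28670.0 after ischemia, 28747, 29288 and 27871 at 0.5 h, 16074, 28532 and 26689 at 1 h and 25872, 28782 and 32302 at 1.5 h. It held 27456, 38429 and 31328 CPM at 3 h, 29948, 23846 and 24030.0 at 6 h and 19122, 18882 and 23140.1 at 12 h. No comparison with sham was called; the log2 difference was 0.34 ± 0.17 (SE; adjusted p = 0.126) at 3 h and -0.33 ± 0.17 (SE; adjusted p = 0.146) at 12 h. Myh7, the slow beta-myosin heavy chain and a fetal isoform in the mouse, held 364, 316 and 293 CPM in sham hearts, 295, 265 and 333 after ischemia, 344, 356 and 292 at 0.5 h, 223, 291 and 297 at 1 h, 219, 312 and 272 at 1.5 h, 245, 273 and 217 at 3 h, 311, 259.7 and 329.8 at 6 h and 238, 284 and 352 at 12 h. Its 3 h libraries lay below sham, with a log2 difference of -0.41 ± 0.16 (SE; adjusted p = 0.0465), a call lost without sham replicates 1 (0.201) or 2 (0.0789) or 3 h replicates 1 (0.0856) or 3 (0.185), and with multiply mapped reads included (0.111). Of the reads mapped to Myh7, 84.3% were unique, the lowest share among members, and the antisense gene Mhrt overlaps it with 15233 reads against 111238 of Myh7.

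As a share of Myh7 and Myh6 per length, Myh7 was 0.656, 0.522 and 0.509% at 3 h and 0.911, 1.10 and 1.11% at 12 h, against 1.000, 0.918 and 0.861% in sham. The means were 0.562% ± 0.0813 at 3 h, 1.04% ± 0.112 at 12 h and 0.926% ± 0.0699 in sham (SD, n = 3 each). No overlap with sham was seen at 3 h, and the 12 h and sham libraries overlapped. With multiply mapped reads included the means were 0.662% ± 0.0757 at 3 h, 1.10% ± 0.117 at 12 h and 1.04% ± 0.0896 in sham. With duplicates removed they were 0.998% ± 0.143 at 3 h, 1.72% ± 0.252 at 12 h and 1.70% ± 0.179 in sham.

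The light chains and myosin-binding protein C followed. Myl2, the ventricular regulatory light chain, held 3041, 3485 and 3036 CPM in sham hearts, 3588, 4502 and 4122 after ischemia, 4784, 4279 and 4369.6 at 0.5 h, 6128, 3781 and 3772 at 1 h, 4076, 3479.7 and 4272 at 1.5 h, 3765, 5176 and 4069 at 3 h, 3771, 3903 and 3751 at 6 h and 2807, 3022 and 2902 at 12 h. It was called higher at 0.5 h (0.49), 1 h (0.52) and 3 h (0.44), and each call was lost when single libraries were left out. The 0.5 h call was lost without any 1 of its 6 libraries, the 1 h call without sham replicates 1 (0.114), 2 (0.0513) or 3 (0.107) or 1 h replicate 1 (0.280), and the 3 h call without sham replicates 1 (0.0757) or 3 (0.0871) or 3 h replicate 2 (0.146). Its atrial counterpart Myl7 held 0 to 12 reads a library, at most 0.709 CPM, and was not tested.

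Myl3, the ventricular essential light chain, held 3889, 4422 and 3895 CPM in sham hearts, 4156, 4974 and 4513 after ischemia, 5087, 4688 and 4670.4 at 0.5 h, 6017, 4237 and 4309 at 1 h, 5144, 4525 and 5047 at 1.5 h, 4709.6, 6095 and 4821 at 3 h, 4337, 4503 and 4155 at 6 h and 3564, 3268 and 3739.9 at 12 h. Only the 3 h difference of 0.36 ± 0.13 (SE; adjusted p = 0.0351) was called, and it was lost without sham replicates 1 (0.0981) or 3 (0.110) or 3 h replicate 2 (0.183). Its atrial and fetal counterpart Myl4 was low throughout, with 1.28, 1.57 and 0.719 CPM in sham hearts, 0.469, 1.27 and 1.10 after ischemia, 1.29, 1.44 and 0.828 at 0.5 h, 1.47, 1.91 and 1.49 at 1 h, 1.67, 1.21 and 1.59 at 1.5 h, 2.35, 2.14 and 2.99 at 3 h, 2.66, 1.40 and 1.62 at 6 h and 1.21, 2.22 and 0.909 at 12 h. These levels rest on 7 to 46 reads a library. The Myl4 difference at 3 h was 1.05 ± 0.38 (SE; adjusted p = 0.0338), a call lost without sham replicates 1 (0.0663) or 3 (0.146) or 3 h replicate 3 (0.124). The summed level of 6 other atrial markers was 521 to 767 CPM at 3 h and 325 to 406 CPM in sham, with Bmp10 at 0. The part of this in the Myl4 result was not tested.

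Mybpc3, cardiac myosin-binding protein C, fell at 12 h to 2137, 1869 and 2260.1 CPM, against 3193, 3426 and 3096 CPM in sham hearts. The 3 libraries at 12 h lay below all others of the series, and the log2 difference was -0.63 ± 0.13 (SE; adjusted p = 7.48e-04).

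In the thin filament, cardiac alpha-actin fell while skeletal alpha-actin was not called. Actc1 (ENSMUSG00000068614, chr2:114047282-114053548, minus strand) held 12633, 11488 and 11159 CPM in sham hearts, 10452, 12089 and 10382 after ischemia, 11071, 10888 and 11031 at 0.5 h, 13009.9, 10000.3 and 10184 at 1 h and 12254, 12098 and 11074 at 1.5 h. It held 7099, 10029 and 9769 CPM at 3 h, 8603, 8324 and 9128 CPM at 6 h and 5618, 5578 and 8394 CPM at 12 h. All 9 libraries from 3 h on lay below sham. The log2 difference was -0.39 ± 0.15 (SE; adjusted p = 0.0421) at 3 h, -0.44 ± 0.15 (SE; adjusted p = 0.0179) at 6 h and -0.85 ± 0.15 (SE; adjusted p = 1.27e-04) at 12 h. With duplicate reads removed the difference at 6 h was -0.10 (adjusted p = 0.500) and that at 3 h -0.11 (0.487), while 59.0 to 73.2% of Actc1 reads were duplicates. The 6 h call was also lost without sham replicate 1 (0.0800) or 6 h replicate 2 (0.0634), and the 3 h call without sham replicates 1 (0.143), 2 (0.0745) or 3 (0.0591) or 3 h replicates 1 (0.206) or 3 (just above 0.05). The 12 h call was kept under every alternative tried.

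Acta1, skeletal alpha-actin, which the stressed heart is known to switch on (ENSMUSG00000031972, chr8:123891769-123894751, minus strand), held 298, 290.5 and 389.7 CPM in sham hearts, 227, 344 and 387 after ischemia, 474, 448 and 447 at 0.5 h, 224, 408 and 528 at 1 h and 604, 498 and 231 at 1.5 h. At 3 h it held 299, 309 and 309 CPM, at 6 h 443, 439 and 414 CPM and at 12 h 538, 229 and 602 CPM. The 6 h libraries were above sham and the 12 h libraries lay on both sides of it; neither difference was called, at 0.41 ± 0.31 (SE; adjusted p = 0.288) and 0.48 ± 0.31 (SE; adjusted p = 0.243). As a share of both actins per length, Acta1 was 5.49, 5.63 and 4.87% at 6 h and 9.76, 4.42 and 7.50% at 12 h, against 2.59, 2.78 and 3.79% in sham. The 0.5 h libraries, at 4.61, 4.44 and 4.38%, also lay above every sham library. With duplicates removed those held 8.62, 8.36 and 8.56%, against at most 7.60% in sham. Means were 5.33% ± 0.403 at 6 h, 7.22% ± 2.68 at 12 h and 3.05% ± 0.646 in sham (SD, n = 3 each), and neither group overlapped sham. With duplicates removed they were 9.35% ± 0.618 at 6 h, 12.0% ± 3.75 at 12 h and 6.59% ± 0.877 in sham. No test was run on these shares.

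**Figure D4:**
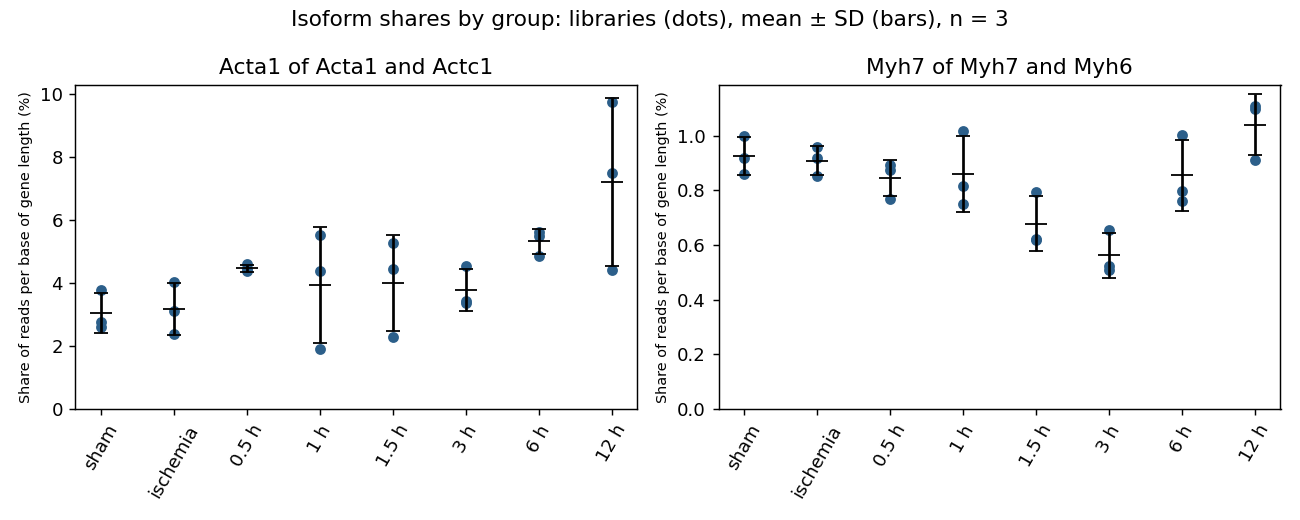
Share of Acta1 in the per-length level of Acta1 and Actc1 (left) and of Myh7 in that of Myh7 and Myh6 (right), in percent, for each library (dots) with the mean and SD of 3 libraries. The actin share is highest at 12 h, with 1 library at 4.42%, and the myosin share is lowest at 3 h.

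Of the troponin I pair, the cardiac gene stayed abundant and the fetal gene near 0. Tnni3 held 2815, 2925 and 2662 CPM in sham hearts, 3011, 3539 and 3035 after ischemia, 3376, 3057 and 3243 at 0.5 h, 4251, 2858 and 3072 at 1 h, 3562, 3309 and 3720.5 at 1.5 h, 3290.0, 4625 and 3178 at 3 h, 2767, 2776 and 2738 at 6 h and 2205, 2567 and 2504 at 12 h. The rise at 3 h, 0.40 ± 0.14 (SE; adjusted p = 0.0290), was lost without sham replicates 1 (0.0597), 2 (0.0509) or 3 (0.0965) or 3 h replicate 2 (0.231). Tnni1, the slow skeletal and fetal troponin I, had 0 to 6 reads in any library, at most 0.386 CPM, and was not tested. Of the remaining thin filament genes, Tnnt2 (troponin T), Tpm1 (tropomyosin) and Lmod2 (leiomodin, which lengthens actin filaments) rose at 3 h by 0.33, 0.31 and 0.58 on the log2 scale. The call for Tnnt2 was lost without sham replicates 1 (0.103), 2 (0.0675) or 3 (0.127) or 3 h replicates 2 (0.290) or 3 (0.0751), that for Tpm1 without sham replicates 1 (0.139), 2 (0.0645) or 3 (0.0833) or 3 h replicates 2 (0.170) or 3 (0.0577), and that for Lmod2 without sham replicates 1 (0.111) or 2 (0.0642) or 3 h replicates 2 (0.0837) or 3 (0.0758). Tmod1, the cap of the thin filament's free end, fell at 12 h to 148, 144 and 184 CPM, against 241, 213 and 208 CPM in sham, a log2 difference of -0.48 ± 0.12 (SE; adjusted p = 0.00437), and Tnnc1, troponin C, was called at no time. The Tmod1 call was lost with scaling by library totals (0.117).

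Ttn, the titin gene (ENSMUSG00000051747, chr2:76703980-76982547, minus strand), fell at 6 h and 12 h. Its libraries held 3719, 3725 and 3541 CPM at 6 h and 2973, 3478 and 4462 CPM at 12 h, against 5177, 5206 and 5293 CPM in sham, with no overlap. The log2 difference was -0.51 ± 0.16 (SE; adjusted p = 0.00948) at 6 h and -0.52 ± 0.16 (SE; adjusted p = 0.0129) at 12 h, the second of which was lost without 12 h replicates 1 (0.0981) or 2 (0.0557) and with scaling by library totals (0.0750). Ttn is the longest gene of the members. Slopes over all genes were -0.10 to -0.16 at 0.5 h, -0.09 to -0.32 at 1 h and -0.06 to -0.12 at 1.5 h. They were -0.08 to -0.13 at 3 h, -0.10 to -0.11 at 6 h and -0.04 to -0.09 at 12 h. Ttn averaged 5225 CPM in sham, 4461 at 0.5 h, 4209 at 1 h and 5299 at 1.5 h. It averaged 4944 CPM at 3 h, 3662 at 6 h and 3638 at 12 h. What caused the Ttn falls was not tested. An offset for length, chosen after seeing the data, gave a Ttn difference of -0.01 at 6 h (adjusted p = 0.967). At 12 h it gave -0.22 (0.312). Nebl, Cmya5 and Myh7b kept their 6 h and 12 h calls with that offset, but Nebl lost those at 0.5 h (-0.31, 0.164) and 3 h (-0.31, 0.0985). At 3 h the calls of Tcap, Myl3, Tnni3 and Myh7 were lost as well, at 1 h those of Tcap, Myl2 and Pdlim3, at 0.5 h that of Myl2, and at 6 h that of Ldb3 (0.0612). Of the M-band proteins that crosslink myosin, Myom2 rose at 3 h by 0.52 on the log2 scale, a call lost without sham replicates 1 (0.0768) or 3 (0.0531) or 3 h replicate 2 (0.0712), and Myom1 was called at no time. Tnnc1 overlaps Nisch and Myom1 overlaps Myl12a, each on the opposite strand. If counting ignored strand, reads from the shared stretch cannot be told apart. The extent of that stretch was not tested.

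**Figure D5:**
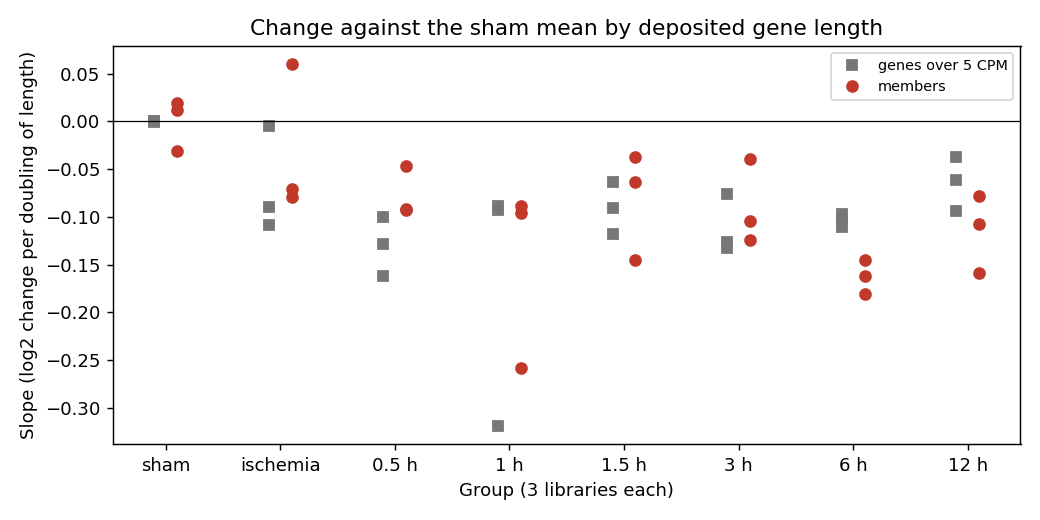
Slope of the log2 change against the sham mean on the log2 of deposited gene length, for 10151 genes over 5 CPM (grey squares) and for the 31 tested members (red circles), in each library. Sham slopes are near 0, and 1 h replicate 1 is the lowest at -0.32 for all genes and -0.26 for the members.

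Cmya5 encodes myospryn, a large protein that binds desmin at costameres (ENSMUSG00000047419, chr13:93040713-93144724, minus strand). It held 649, 635 and 594 CPM in sham hearts, 783, 600.1 and 594 after ischemia, 589, 625 and 624 at 0.5 h, 428, 625 and 616 at 1 h and 632, 737 and 690.2 at 1.5 h. It held 479, 839 and 579 CPM at 3 h, 447, 400.1 and 387 CPM at 6 h and 302, 328 and 385 CPM at 12 h. Libraries at 6 h and 12 h all lay below sham, and those at 3 h lay on both sides. The log2 difference was -0.61 ± 0.17 (SE; adjusted p = 0.00441) at 6 h and -0.89 ± 0.17 (SE; adjusted p = 2.65e-04) at 12 h. Des and Cmya5, whose proteins bind each other, thus differed from sham in opposite directions at both times. Smpx, a small protein of the costamere, lay within 148 to 266 CPM over all 24 libraries and was called at no time.

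Between 3 h and 6 h the direct comparison called 3 members higher and 6 lower at 6 h, where 27.9% of all tested genes were called, 14.7% higher and 13.2% lower. Synpo2l was 6.34-fold higher at 6 h than at 3 h, with 1401 ± 600.1 and 221 ± 104 CPM (SD, n = 3 each), and Myh7b was 6.44-fold lower, with 27.5 ± 6.60 and 178 ± 82.9 CPM. Without 3 h replicate 2 the count came to 4 (18.7% of all genes called), and without 6 h replicate 2 to 5 (18.3%). Synpo2l and Myh7b were the members called under every alternative tried. Between 6 h and 12 h, 6 members were lower at 12 h, where 13.2% of all tested genes were called, 6.49% higher and 6.69% lower. Synpo2l was 3.03-fold lower at 12 h than at 6 h, and Myh7b 2.43-fold lower. That count came to 2 without 6 h replicate 2 (5.09% of all genes called) or 12 h replicate 2 (7.70%). It was 1 without 12 h replicate 1 (7.39%). With library totals (14.5%) and with totals without mitochondrial genes (18.1%) it was 2 higher and 2 lower. Synpo2l and Des therefore lay between their 6 h and sham levels at 12 h, while Myh7b was lower still.

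Other genes of the sarcomere were read from a list of 47, of which 44 were tested. At 3 h 19 of them rose and 1 fell, at 6 h 23 rose and 5 fell, and at 12 h 16 rose and 6 fell; their median log2 change was 0.37 at 3 h, 0.46 at 6 h and 0.25 at 12 h. The share called was 45.5% at 3 h, 63.6% at 6 h and 50% at 12 h. Of all tested genes 35.3%, 47.4% and 31.8% were called at those times. This is not an independent comparison, since the list was chosen with earlier results of these data known. Ankrd2, a titin-binding ankyrin repeat protein with few reads in sham, had 25.5 ± 13.0 CPM at 6 h and 0.367 ± 0.237 CPM in sham (SD, n = 3 each), a log2 difference of 6.14 ± 0.56 (SE; adjusted p = 8.49e-09). Flnc, filamin C, which crosslinks actin at the Z-disc, averaged 6748 ± 3442 CPM at 6 h and 388 ± 94.7 CPM in sham, a log2 difference of 4.12 ± 0.43 (SE; adjusted p = 4.78e-08). Xirp1, an actin-binding Xin repeat protein of the intercalated disc, differed by 3.52 ± 0.32 (SE; adjusted p = 9.42e-09) at 6 h, and Ankrd1, the cardiac ankyrin repeat protein that binds myopalladin, by 3.17 ± 0.23 (SE; adjusted p = 4.64e-10). Of these 4, all were called at 3 h, 6 h and 12 h.

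Genes for the folding and turnover of sarcomere proteins moved in both directions. Of 23 tested, 12 rose and 4 fell at 3 h. At 6 h 10 rose and 3 fell, and at 12 h 9 rose and 5 fell. The share called was thus 69.6% at 3 h, 56.5% at 6 h and 60.9% at 12 h. Of all tested genes 35.3%, 47.4% and 31.8% were called at those times. The median log2 change of the 23 genes was 0.26 at 3 h, 0.10 at 6 h and -0.03 at 12 h. Klhl40 and Klhl41, muscle kelch proteins that stabilise thin filament proteins, differed by 3.99 ± 0.43 (SE; adjusted p = 8.82e-08) and 2.73 ± 0.35 (SE; adjusted p = 1.25e-06) at 6 h, and Hsp90aa1, a chaperone used in myosin folding, by 1.99 ± 0.30 (SE; adjusted p = 7.60e-06). Klhl31, a related kelch gene, fell to 51.8 ± 2.53 CPM at 6 h, against 166 ± 5.70 CPM in sham, a log2 difference of -1.68 ± 0.12 (SE; adjusted p = 3.65e-10).

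Transcription factors of heart muscle moved in both directions. Of 26 tested, 6 rose and 2 fell at 3 h, 6 rose and 6 fell at 6 h, and 3 rose and 6 fell at 12 h. The share called, 30.8% at 3 h, 46.2% at 6 h and 34.6% at 12 h, was near the 35.3%, 47.4% and 31.8% of all tested genes. Tead4, a TEAD factor that binds the M-CAT motif, averaged 18.4 ± 2.11 CPM at 3 h and 3.79 ± 0.592 CPM in sham, a log2 difference of 2.27 ± 0.21 (SE; adjusted p = 4.21e-08). Ppargc1a, a coactivator of mitochondrial genes, was 1.24 ± 0.24 (SE; adjusted p = 4.14e-04) relative to sham at 3 h and -1.07 ± 0.25 (SE; adjusted p = 9.61e-04) at 6 h on the log2 scale. Rxrg, a retinoid receptor, differed by -1.49 ± 0.18 (SE; adjusted p = 3.60e-07) at 6 h and Esrrg, an estrogen-related receptor, by -0.99 ± 0.15 (SE; adjusted p = 2.41e-05) at 12 h.

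Some lists of cell type markers shifted in summed level at 6 h and 12 h. The summed level of 12 cardiomyocyte genes that are not sarcomeric was 29665 to 32452 CPM at 6 h and 24943 to 26959 CPM at 12 h, against 36325 to 37492 CPM in sham hearts; 3 of the 12 rose and 4 fell at 6 h, and 1 rose and 6 fell at 12 h. That of 8 neutrophil genes was 125 to 248 CPM at 6 h and 199 to 237 CPM at 12 h, against 4.65 to 10.3 CPM in sham, and that of 8 fibroblast genes 529.8 to 838 CPM at 6 h and 693 to 1184 CPM at 12 h, against 1351 to 1422 CPM in sham. Of the 8 fibroblast genes 2 rose and 6 fell at 6 h, and 1 rose and 3 fell at 12 h. All 7 tested neutrophil genes rose at both times. The sum of 8 macrophage and monocyte genes overlapped sham, with 288 to 375 CPM at 6 h, 318 to 446 CPM at 12 h and 301 to 321 CPM in sham. Of these 8 genes, however, 5 rose and 2 fell at 6 h, and 4 rose and 2 fell at 12 h. The sum of 8 endothelial genes was 1272 to 1315 CPM at 6 h and 988 to 1097 CPM at 12 h, against 1025 to 1153 CPM in sham. Of the endothelial genes 2 rose and 1 fell at 6 h, and 2 fell at 12 h. In bulk tissue, fewer muscle cells and less RNA of a gene per muscle cell cannot be told apart, and the part of these shifts in the falls of Actc1, Mybpc3, Nebl, Cmya5 and Myh7b was not tested.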

How the data were processed

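RNA of 24 heart samples was sequenced with TruSeq libraries, and the authors deposited 1 table per library with gene counts in several forms; reads were aligned to mm10, per the submitters' processing notes. The counts used were those of unique reads with duplicates kept, as deposited by the authors; the sources used here give neither the aligner's settings nor its use of strand. Tests used edgeR 4.0.16 in R 4.3.3: filterByExpr (minimum count 10, minimum total 15), TMM scaling, 1 quasi-likelihood fit of all 24 libraries with 16 residual degrees of freedom, and Benjamini-Hochberg adjustment over 15128 genes, called at 0.05. Levels are CPM over the TMM-scaled library size. Alternatives used DESeq2 1.42.0 and limma 3.58.1, other scalings, filters and counts, each library left out in turn, and an offset for gene length. Promoter windows came from RefSeq. The members and lists were chosen with earlier results of these data known. By rule, the text gives values per library for 9 members and 5 isoform pairs and names up to 4 genes of each other list; values per library of Pdlim5, Tcap, Mybpc3, Tmod1 and Ttn were added after they were seen.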

Additional observations from a re-analysis of the deposited data

Results flagged for a closer look

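Effects of reperfusion on 15 occasions differed between neighbouring times by edgeR's test of the difference itself; since both times are set against the same sham libraries, this is the direct comparison of the times. Between 3 h and 6 h, 3 members were higher at 6 h: Synpo2l by a log2 difference of 2.66 ± 0.34 (SE; adjusted p = 4.52e-06), Des by 0.57 ± 0.14 (SE; adjusted p = 0.00338) and Mypn by 0.49 ± 0.15 (SE; adjusted p = 0.0142). Another 6 were lower at 6 h: Myh7b by -2.69 ± 0.32 (SE; adjusted p = 2.75e-06), Nebl by -0.66 ± 0.17 (SE; adjusted p = 0.00436), Cmya5 by -0.62 ± 0.17 (SE; adjusted p = 0.00715), Ttn by -0.43 ± 0.16 (SE; adjusted p = 0.0415), Tnni3 by -0.42 ± 0.14 (SE; adjusted p = 0.0274) and Myoz2 by -0.39 ± 0.14 (SE; adjusted p = 0.0351). Library 3 h replicate 2, which among the 3 h libraries held the highest level of most members, bore on 5 of these: without it adjusted p was 0.132 for Cmya5, 0.0512 for Nebl, 0.335 for Ttn, 0.267 for Tnni3 and 0.157 for Myoz2. The Mypn call was lost without 3 h replicate 1 (0.0740) or 6 h replicate 2 (0.0871). Ttn and Tnni3 were also lost without any 1 of the 3 libraries at 6 h, with adjusted p up to 0.126 for Ttn and 0.0727 for Tnni3, and Myoz2 without 6 h replicates 2 (0.0946) or 3 (0.135). With duplicates removed the calls of Tnni3 (0.159) and Myoz2 (0.0781) were lost, and with library totals that of Ttn (0.0618).

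Between 6 h and 12 h, 6 members were lower at 12 h: Synpo2l by -1.60 ± 0.32 (SE; adjusted p = 0.00191), Myh7b by -1.28 ± 0.33 (SE; adjusted p = 0.0107), Lmod2 by -0.59 ± 0.19 (SE; adjusted p = 0.0408), Mypn by -0.56 ± 0.15 (SE; adjusted p = 0.0124), Des by -0.51 ± 0.14 (SE; adjusted p = 0.0157) and Mybpc3 by -0.42 ± 0.13 (SE; adjusted p = 0.0374). Without 12 h replicate 1 adjusted p was 0.0542 for Myh7b, 0.151 for Lmod2, 0.0601 for Mypn, 0.0561 for Des and 0.0727 for Mybpc3. Without 12 h replicate 2 it was 0.0618 for Myh7b, 0.111 for Lmod2, 0.0659 for Des and 0.144 for Mybpc3. Without 6 h replicate 2 it was 0.217 for Lmod2, 0.0915 for Mypn, 0.129 for Des and 0.103 for Mybpc3. Further losses came without 6 h replicate 1 (Lmod2 0.0749, Mybpc3 0.120) and 6 h replicate 3 (Des 0.0651, Mybpc3 0.0545). With scaling by library totals adjusted p was 0.0656 for Des, 0.103 for Mypn, 0.270 for Mybpc3 and 0.0926 for Lmod2. With totals without mitochondrial genes it was 0.0638 for Des, 0.0708 for Mypn, 0.229 for Mybpc3 and 0.108 for Lmod2. Synpo2l was kept under every alternative tried.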

How the results depend on the processing

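No call against sham reversed its direction under any alternative. Calls kept under every alternative were 3 of 17 at 3 h (Des, Nrap, Pdlim3), 8 of 11 at 6 h, 10 of 12 at 12 h, 2 of 9 between 3 h and 6 h, 1 of 6 between 6 h and 12 h, 17 of 22 among all 8 groups, and 0 of the 7 at 0.5 h to 1.5 h. The cause of lost calls was not tested. Percentages in brackets below give the share of all tested genes called. The number of members called at 0.5 h was 3 in the fit reported (11.9%) and 8, all higher, with scaling by library totals (12.3%). It was 5 with no filter (7.46%), 6 with duplicates removed (13.7%) and 14 with only the 6 libraries compared (28.4%). At 1 h, 3 became 6 with library totals (9.41%), 5 by DESeq2 (13.3%) and 7 with duplicates removed (12.6%). It became 1 with the length offset (7.11%), which was chosen after seeing the data. At 1.5 h, 1 became 6 with no filter (6.15%) and 7 with only 6 libraries (14.9%). It became 2 by DESeq2 (9.72%) and 2 with duplicates removed (8.28%). At 3 h, 17 became 7 with totals without mitochondrial genes (4 higher, 3 lower, 39.1%) and 9 with only 6 libraries (35.0%). At 6 h, 11 became 17 with library totals (11 higher, 6 lower, 44.9%) and 18 with only 6 libraries (53.1%). At 12 h library totals gave 8 higher and 5 lower (35.1%). The median log2 change of all genes was 0.23 at 12 h with library totals and -0.19 at 3 h with totals without mitochondrial genes, against 0.01 and -0.01 in the fit reported. With each library left out in turn the counts ranged from 0 to 0 after ischemia, 0 to 0 at 0.5 h, 0 to 3 at 1 h, 0 to 1 at 1.5 h, 5 to 16 at 3 h, 9 to 13 at 6 h, 11 to 12 at 12 h, 4 to 11 between 3 h and 6 h, 1 to 8 between 6 h and 12 h, and 19 to 24 among all groups. The share of all genes called ranged as well, from 25.3 to 32.5% at 3 h, 37.7 to 43.8% at 6 h and 24.4 to 28.0% at 12 h. Of 84 pairs of samples with the same replicate number, 6 had deviations correlated over 0.1 (range -0.179 to 0.199). Samples with different numbers were not compared, so this does not settle whether the numbers pair the samples. With the replicate number as a block, 13 members were called at 3 h (34.5%), 11 at 6 h (46.8%) and 12 at 12 h (31.0%). Depth limits Myl4, Myl7 and Tnni1, which had 7 to 46, 0 to 12 and 0 to 6 reads a library.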
